A study of Mus musculus with 12 samples.

Results

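A set of 10 genes around ATF4, the transcription factor at the centre of the integrated stress response, was followed in mouse embryonic fibroblasts. The set holds Atf4, Atf3, Atf5, Ddit3, Trib3, Chac1, Sesn2, Nupr1, Ppp1r15a and Ddit4. They were chosen by name as regulators of this response, with the fold changes of both comparisons below already known, so their values and calls describe these libraries and are not independent evidence of a direction. All 10 were found in both tables, of 43280 entries in the table of the 2MUT experiment and 23930 in that of the 2-HG experiment.

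The cells were MEF, fibroblasts taken from C57BL/6 embryos at embryonic day 13.5 that became immortal by themselves during passage. They were sequenced in 4 groups, each of 3 libraries. In the group 2MUT the cells stably expressed a cancer-associated mutant of human IDH2, tagged with FLAG, from a retroviral vector, Control cells carried the same vector without it, and neither was treated. 2-HG(+) cells received 2-HG, the metabolite that mutant IDH enzymes make, in a form that passes the cell membrane, at 300 μM over 24 h, and 2-HG(-) cells for 24 h with DMSO according to the sample labels, whereas the paper calls them non-treated. The first comparison sets cells with the mutant enzyme beside cells with the empty vector, and the second cells with and without its product. Cells with added wild-type IDH2 were not sequenced, so the mutation and the added enzyme cannot be told apart. The experiments also differ in transduction, in stable expression against 24 h of treatment, and in depth. Differences between the comparisons cannot be assigned to any of these alone. The labels do not say whether the 3 libraries of a group came from separate cultures, so p-values measure the spread between these libraries, which may be technical. Control and 2MUT cells were both selected with puromycin after infection, and the methods describe no cloning of single cells.

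In the integrated stress response, 4 kinases phosphorylate the initiation factor eIF2 when amino acids, heme, ER folding or viral RNA signal trouble. General translation falls, while translation of Atf4 and a few other mRNAs goes on, and ATF4 protein then turns on genes for amino acid supply, tRNA charging and stress adaptation. Because ATF4 is controlled largely at translation, the level of its mRNA is only part of its activity, and ATF4 protein was not measured in these libraries.

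Values are in RPM, the reads of a gene scaled to 1000000 gene reads in the library, from a kit that amplifies a short target of each transcript. Libraries held between 6472439 and 7313602 reads in the 2MUT experiment and between 14959318 and 18363768 in the 2-HG experiment, and 3 reads, the limit of detection used here, were worth at most 0.464 and 0.201 RPM. Of the 8 fibroblast markers tested, 6 were lower and 1 higher in 2MUT, and 4 were lower and 1 higher in 2-HG(+) (limma, Benjamini-Hochberg adjusted p under 0.05). Their summed level ranged from 14414 to 16383 RPM in Control, from 13005 to 13455 in 2MUT, from 21605 to 23249.7 in 2-HG(-) and from 15239 to 16263 in 2-HG(+), while epithelial and endothelial markers summed to at most 3.22 and 3.09 RPM in any library. Leukocyte markers summed to at most 13.5 RPM, nearly all from Cd68, the 1 of them tested, which was lower in 2-HG(+) (log2 fold change -0.51, adjusted p = 0.021) and not called in 2MUT (-0.39). In bulk RNA, fewer cells of a type and less RNA per cell cannot be told apart, and the part of the lower fibroblast markers and Cd68 in the results below was not tested. The endogenous mouse Idh2 was lower in 2MUT (log2 fold change -0.63, standard error 0.13) and higher in 2-HG(+) (0.43, standard error 0.10). It does not check the human transgene.

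ATF4 binds DNA as a dimer with C/EBP proteins at the C/EBP-ATF response element, or CARE, searched here as TGATGNAA on both strands of the RefSeq promoter windows of GRCm38, which run from 250 bases before to 50 bases after each start site. Of 27025 genes with a window, 4.51% held a match. Among the 10 regulators, Atf3, Chac1, Nupr1 and Trib3 held 1 each, all on the reverse strand. Those of Atf3, Chac1 and Nupr1 lie before the start site, and that of Trib3 begins 15 bases after it. The 30 bases around each are shown because these 4 genes share the site, with the match in capitals:
Atf3, chr1:191183425-191183454, minus strand: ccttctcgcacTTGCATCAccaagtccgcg
Chac1, chr2:119351038-119351067, plus strand: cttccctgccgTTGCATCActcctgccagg
Nupr1, chr7:126625562-126625591, minus strand: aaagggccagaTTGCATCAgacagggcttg
Trib3, chr2:152344028-152344057, minus strand: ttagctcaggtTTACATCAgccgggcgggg
The matches in Atf3 and Nupr1 each begin 110 bases before the start and that in Chac1 193 bases before it, and these 3 read the same 8 bases. The start is that of the RefSeq window. The spans of Atf3 and Nupr1 given below reach further upstream, and their sequence there was not searched. The cAMP response element TGACGTCA, found in 2.03% of genes, was present in Ppp1r15a alone among the 10, beginning 12 bases before its start:
Ppp1r15a, chr7:45526262-45526291, minus strand: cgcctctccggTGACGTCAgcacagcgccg
The ER stress element ERSE, found in 0.137% of genes, was in none of the 11 windows of the 10 regulators, of which Atf5 has 2 and the others 1 each. No match of these letters was found in the windows of Atf4, Atf5, Ddit3, Sesn2 and Ddit4, which says only that they are not in these windows of 300 bases. A match is a description of the sequence and not a measured binding site.

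More of the 10 genes were called with 2-HG than in 2MUT cells. In 2-HG(+), 9 of the 10 were called higher and none lower, against 16.1% of the 10384 genes tested called higher and 16.7% called lower. In 2MUT, 3 were called higher and 1 lower, against 16.5% of 11065 genes called higher and 17.3% called lower. A gene was called at a Benjamini-Hochberg adjusted p under 0.05 in limma's test across all genes, and since the choice used these contrasts nothing is read from the shares. With a test that does not moderate the spread, 1 regulator was called in 2MUT, Atf3, and 7 with 2-HG, where Sesn2 and Ddit4 lost their calls. The median log2 fold change of the 10 was 1.34 in the 2-HG comparison, where the median of all genes was -0.021, and 0.16 in the 2MUT comparison, where it was 0.0081. All 10 passed the filter of a mean of 1 RPM in both tables, and log2 fold changes are on the scale of log2(RPM + 1), which understates those of low genes. In the 2-HG experiment the 3 treated libraries lay above all 3 untreated ones for 9 genes and below for none (22.2% and 24.1% of all genes), and in the 2MUT experiment above for 4 and below for 1 (23.5% and 24% of all genes).

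**Figure D1:**
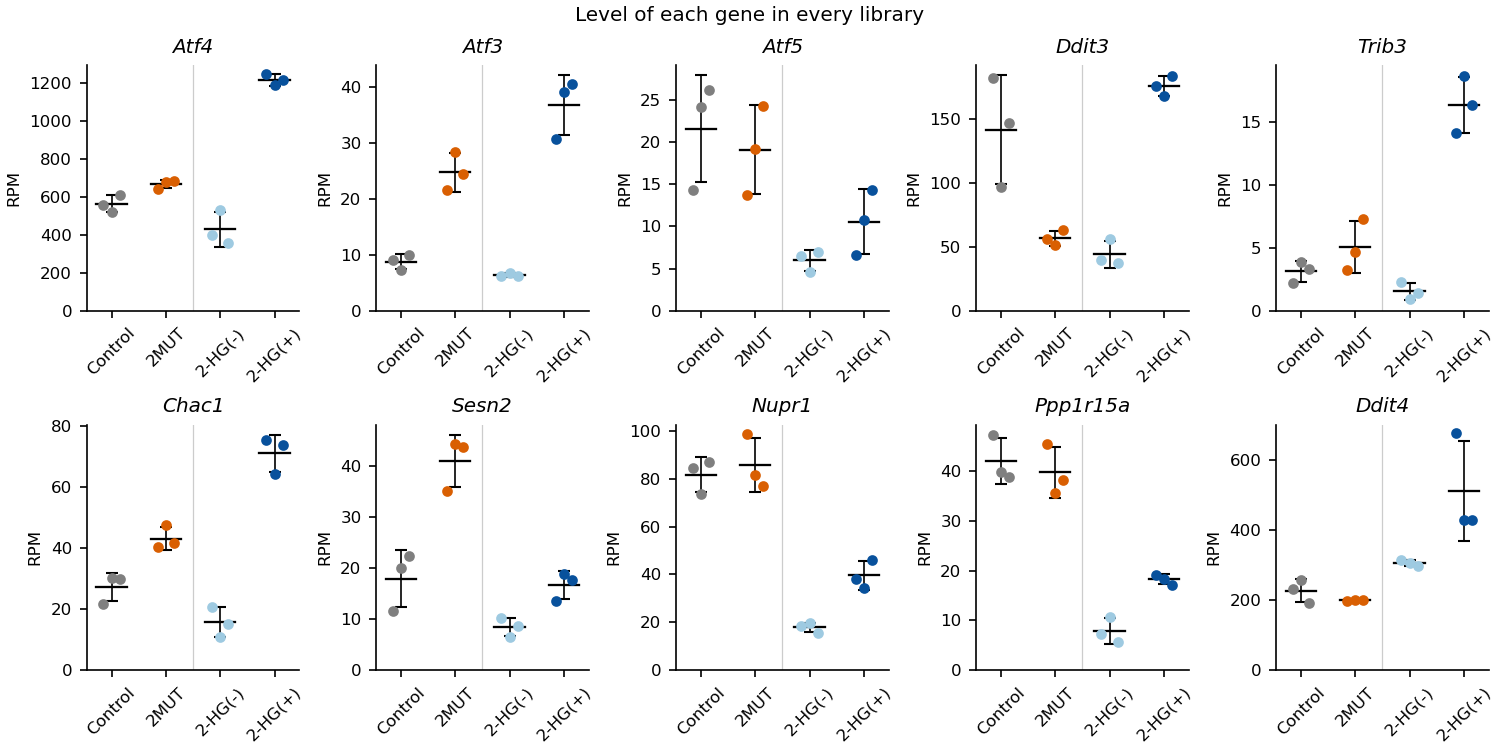
Level in RPM (vertical axes, each from 0) of the 10 regulators in each of the 12 libraries (points) of the 4 groups, with the mean and SD of each group as black bars. The 2-HG(+) libraries of Atf4 lie between 1189 and 1250.4 RPM, above all 3 of 2-HG(-), whereas Ddit3 lies between 51.1 and 62.7 RPM in 2MUT, below all 3 of Control.

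Atf4 (chr15:80255184-80257541) encodes the factor itself. It was at 559, 522 and 612 RPM in Control and at 644, 677 and 685 RPM in 2MUT. The 3 mutant libraries all lay above the 3 controls, but the step was small, from 564 ± 45.4 to 669 ± 21.8 RPM (SD, n = 3), and the change of 0.25 on the log2 scale (standard error 0.089) was not called, though it passed the threshold with DESeq2 or quantile normalization. The 2-HG experiment gave 399, 533 and 358 RPM without and 1250.4, 1189 and 1218 RPM with 2-HG. The treated libraries were close together and all above the highest untreated one, replicate 2, and the log2 fold change was 1.52 (standard error 0.14).

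Atf5 (chr7:44812256-44816658), a bZIP factor whose translation is controlled by uORFs much like that of Atf4, varied widely within its groups. Control libraries held 14.4, 24.2 and 26.3 RPM and 2MUT libraries 13.8, 19.2 and 24.4 RPM. These groups overlapped, at a log2 fold change of -0.16 (standard error 0.25). In the 2-HG experiment the values were 6.48, 4.55 and 6.91 RPM without and 6.61, 10.7 and 14.3 RPM with 2-HG. Replicate 1 of 2-HG(+) lay inside the untreated range and the other two above it, so that Atf5 was the 1 regulator not called there, at a log2 fold change of 0.69 (standard error 0.25). Leaving out that library raised it to 0.96, and leaving out another lowered it to 0.45.

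Atf3 (chr1:191170296-191218039) encodes a bZIP factor that is induced by ATF4 and acts largely as a repressor, and it held one of the CARE matches shown above. Its level was 9.03, 7.27 and 9.98 RPM in Control and 21.5, 28.4 and 24.4 RPM in 2MUT. Without 2-HG it was 6.10, 6.75 and 6.12 RPM and with 2-HG 30.7, 39.0 and 40.5 RPM. Neither pair of groups overlapped, and both changes were rises, of 1.40 (standard error 0.18) and 2.36 (standard error 0.14) on the log2 scale. In 2MUT this was the largest rise of the 10.

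Ddit3 (chr10:127290774-127296288) encodes CHOP, a C/EBP-family factor best known for its part in cell death under prolonged ER stress. Control libraries held 182, 96.4 and 147 RPM, and 2MUT libraries 56.2, 51.1 and 62.7 RPM. Every 2MUT library lay below every control, although the controls were themselves widely spread (142 ± 42.8 against 56.7 ± 5.84 RPM, SD, n = 3), and Ddit3 fell by 1.26 on the log2 scale (standard error 0.19). With 2-HG the direction was the opposite. Untreated libraries held 39.4, 56.4 and 36.9 RPM and treated ones 176, 168 and 183 RPM, a log2 fold change of 1.99 (standard error 0.15). Ddit3 was the 1 regulator whose groups separated in opposite directions in the 2 experiments, and its change in 2MUT was 3.25 smaller than that with 2-HG on the log2 scale (standard error 0.28). The level in Control was close to that in 2-HG(+), but the cells of the experiments differ in transduction and selection and the tables list different entries, so levels are set side by side only.

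Ddit3 shares 68 bases with Mars on the opposite strand, and whether the counting used strand is not given in the sources used here. Mars, the methionyl-tRNA synthetase, had log2 fold changes of 0.20 (limma, Benjamini-Hochberg adjusted p = 0.23) in 2MUT and 0.78 (adjusted p = 6.0e-04) with 2-HG. Its changes were smaller than those of Ddit3 in both comparisons, and in 2MUT of the other sign. Whether reads of Mars enter the values of Ddit3 was not tested. Ppp1r15a shares 717 bases with Tulp2, which was at no more than 0.275 RPM in any library. Genes that overlap Atf3, Atf5 and Sesn2, listed in the 2MUT table only, were at no more than 0.309 RPM. Whether the kit targets these genes is not given in the sources used here, so such low values may not measure their expression.

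Trib3 (chr2:152337422-152344032) encodes a pseudokinase that binds ATF4 and CHOP and damps their activity. Its values rest on few reads. Control held 2.22, 3.85 and 3.28 RPM, from 15 to 27 reads, and 2MUT 3.25, 4.69 and 7.29 RPM, from 21 to 53 reads. These groups overlapped at a log2 fold change of 0.53 (standard error 0.28), which ran from 0.28 to 0.76 with single libraries left out. Without 2-HG it was at 2.29, 0.936 and 1.38 RPM and with 2-HG at 14.1, 18.6 and 16.3 RPM. The treated libraries, with 214 to 310 reads, stood far above the untreated ones, with 14 to 42, and the log2 fold change of 2.80 (standard error 0.20) was the largest of the 10.

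Chac1 (chr2:119351229-119354381) encodes an enzyme that breaks down glutathione. Its values were 21.8, 30.1 and 29.8 RPM in Control and 40.2, 47.4 and 41.7 RPM in 2MUT, with no overlap, and the log2 fold change was 0.66 (standard error 0.15). In the 2-HG experiment they were 20.7, 10.9 and 15.1 RPM without and 75.4, 64.2 and 73.9 RPM with 2-HG. This was a rise of 2.16 (standard error 0.20) on the log2 scale. Chac1, Atf3 and Sesn2 were the 3 regulators called higher in both comparisons, as were 1.5% of all genes tested in both.

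Sesn2 (chr4:132492032-132510501), Sestrin 2, holds back mTORC1 when leucine is scarce. Control libraries were at 11.5, 19.9 and 22.3 RPM and 2MUT libraries at 35.2, 44.4 and 43.8 RPM. Untreated libraries were at 10.2, 6.55 and 8.65 RPM and those with 2-HG at 13.5, 18.8 and 17.6 RPM. The log2 fold changes, 1.196 (standard error 0.22) in 2MUT and 0.91 (standard error 0.18) with 2-HG, were of like size, and Sesn2 was the 1 regulator whose change was the larger in 2MUT, by 0.29 (standard error 0.32).

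Nupr1 (chr7:126623249-126630861), a small stress-induced chromatin protein, held 84.5, 73.6 and 87.4 RPM in Control and 98.7, 81.8 and 76.9 RPM in 2MUT. The ranges overlapped, and the log2 fold change was 0.064 (standard error 0.13). With 2-HG it went from 18.4, 19.5 and 15.5 RPM to 38.3, 34.5 and 46.3 RPM. That was a log2 fold change of 1.11 (standard error 0.14) with no overlap.

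The remaining regulators act as brakes on translation control and growth. Ppp1r15a (chr7:45522916-45526268) encodes GADD34, which brings protein phosphatase 1 to eIF2 and so ends the response. It was at 47.3, 39.9 and 38.8 RPM in Control and 45.6, 35.7 and 38.3 RPM in 2MUT, a log2 fold change of -0.077 (standard error 0.14). With 2-HG it rose from 7.19, 10.6 and 5.64 RPM to 19.2, 18.3 and 17.2 RPM, by 1.16 on the log2 scale (standard error 0.19). Ddit4 (chr10:59949669-59951834) encodes REDD1, an inhibitor of mTORC1. Its Control values of 232, 257 and 192 RPM enclosed the 2MUT values of 198, 199.99 and 199.9 RPM, at a log2 fold change of -0.18 (standard error 0.11). In the 2-HG experiment it held 313, 305 and 297 RPM without and 677, 430 and 429 RPM with 2-HG. The rise of 0.71 (standard error 0.16) leaned on replicate 1 of 2-HG(+), without which it was 0.49. It was called by limma with each library left out but not by the unmoderated test (Benjamini-Hochberg adjusted p = 0.098).

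**Figure D2:**
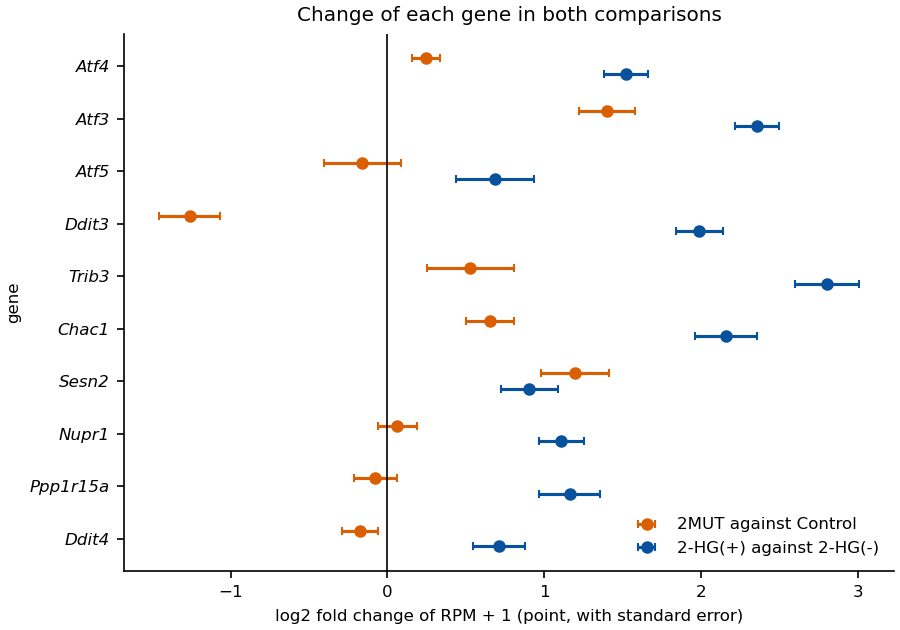
Log2 fold change of RPM + 1 (horizontal axis) with its standard error for each of the 10 regulators (vertical axis), in 2MUT against Control (orange) and in 2-HG(+) against 2-HG(-) (blue). With 2-HG the changes run from 0.69 to 2.80, and in 2MUT from -1.26 for Ddit3 to 1.40 for Atf3.

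The pairwise likeness of the 10 genes differed between the tables. Over the 6 libraries of the 2-HG experiment, all 45 pairs of regulators had a positive Pearson correlation of log2(RPM + 1), from 0.31 to 0.998 with a median of 0.88. Over the 6 libraries of the 2MUT experiment 22 of the 45 pairs were positive, from -0.96 to 0.99 with a median of -0.0070. These are descriptions over 6 points that share their group structure and their libraries. The mean of the 10 centred genes was -0.22, -0.13 and -0.017 in the 3 Control libraries and 0.017, 0.13 and 0.21 in those of 2MUT, on the log2 scale. In the 2-HG experiment it was -0.67, -0.78 and -0.86 in 2-HG(-) and 0.70, 0.76 and 0.85 in 2-HG(+), so the untreated and treated libraries stood much farther apart. Genes outside the 10 whose pattern was most like this mean over the 12 libraries, among 5217 genes compared, were led by Slc7a5, Car6 and Aldh1l2 with Pearson correlations of 0.993, 0.990 and 0.988. They were followed by Slc20a1, Tubb3, Psat1, Gpt2, Eif4ebp1, Paqr3 and Odc1, down to 0.969. Within the tables these 10 correlations were 0.985 or more in the 2-HG experiment and between 0.230, for Eif4ebp1, and 0.861, for Paqr3, in the 2MUT experiment. Of these, 5 genes, Slc7a5, Aldh1l2, Psat1, Gpt2 and Eif4ebp1, are on the lists of ATF4 target genes described below, and Car6, a carbonic anhydrase, had the widest change of these genes with 2-HG, a log2 fold change of 4.88.

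**Figure D3:**
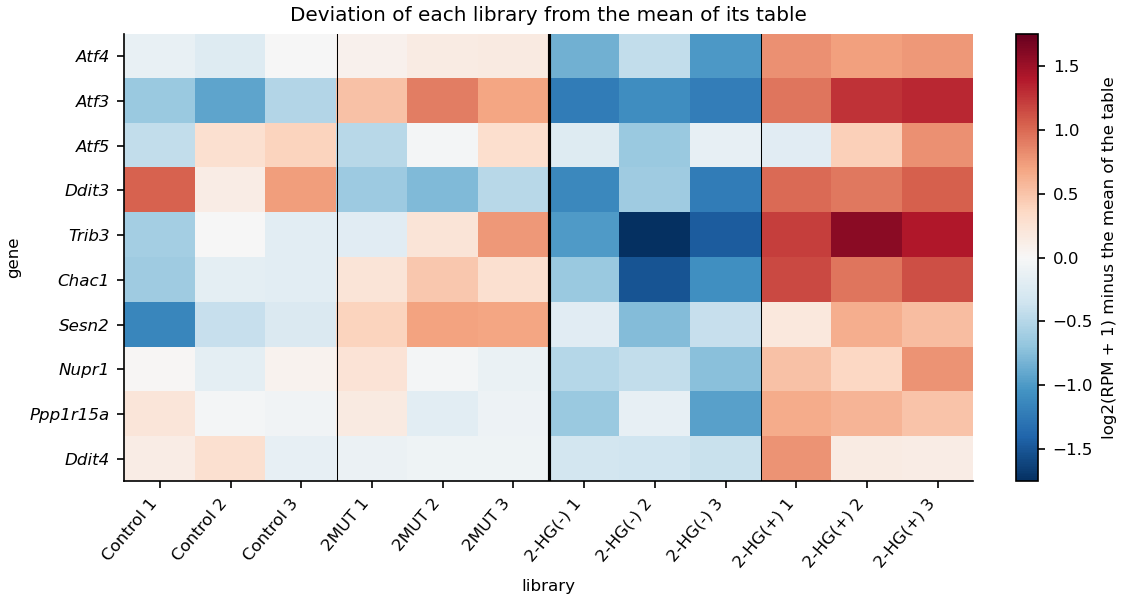
Deviation of each regulator (rows) in each library (columns) from its mean over the 6 libraries of its own table, in log2(RPM + 1), red above and blue below. In the 2-HG experiment blue columns of 2-HG(-) face red columns of 2-HG(+) in nearly every row, with replicate 1 of 2-HG(+) slightly below the mean for Atf5, while in the 2MUT experiment Ddit3 runs against Atf3, Chac1 and Sesn2.

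The rest of the pathway was read from 9 lists with 111 genes in all, of which 98 were tested in the 2MUT and 99 in the 2-HG comparison. In 2MUT 25 (25.5%) were higher and 13 (13.3%) lower, where 16.5% and 17.3% of all genes tested were. With 2-HG 58 (58.6%) were higher and 10 (10.1%) lower, where 16.1% and 16.7% of all genes were. Of these calls, 22 of 38 in 2MUT and 59 of 68 with 2-HG held whichever library was left out. The difference between the comparisons, tested over the 12 libraries as the change in 2MUT minus the change with 2-HG, was called larger in 2MUT for 16 list genes and called smaller for 52, of 97 tested, where 19.9% and 19.5% of all 9594 genes were called in these directions. Of the 97 list genes tested in both comparisons, 10 (10.3%) were called higher in both and 16 (16.5%) in opposite directions, where 1.5% and 9.38% of all 9594 genes were. The lists were chosen with earlier results of these data known, so nothing is read from these shares. The calls and adjusted p of list genes below likewise describe these libraries. Their counts are to be set beside the shares of all genes given here.

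Upstream, few genes of the eIF2 kinases and their regulators were called. Eif2ak1 (HRI, the heme-regulated kinase), Eif2ak2 (PKR, which senses double-stranded RNA), Eif2ak3 (PERK, of the ER) and Eif2ak4 (GCN2, which senses uncharged tRNA) had log2 fold changes between 0.13 and 0.31 in 2MUT. None of the 10 genes of this list was called in 2MUT by limma, edgeR or DESeq2, and at an unadjusted p under 0.05 limma counted 1 higher, Dnajc3, and 1 lower, Prkra. With 2-HG, Eif2ak2 fell from 56.7, 60.4 and 60.3 RPM to 32.5, 33.4 and 38.6 RPM (log2 fold change -0.75, limma, Benjamini-Hochberg adjusted p = 7.2e-04). It was the 1 call of the list by limma and by edgeR, while DESeq2 called 2 lower, the other being Eif2ak3 (log2 fold change -0.41), and limma counted 3 lower at an unadjusted p under 0.05. In the other direction 0 were called by these tools and 0 at an unadjusted p under 0.05. The median log2 fold change was 0.14 in 2MUT and -0.12 with 2-HG, beside 0.0081 and -0.021 for all genes.

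Among the subunits of eIF2 and of eIF2B, the exchange factor that phosphorylated eIF2 blocks, and the phosphatase, 7 of 10 tested genes were higher with 2-HG and 0 lower, the latter also by edgeR and DESeq2 and at an unadjusted p under 0.05. Eif2b3 rose the most, from 20.8, 14.6 and 15.8 RPM to 31.6, 40.05 and 51.9 RPM (log2 fold change 1.21, adjusted p = 0.0012). Eif2s1, the subunit that the kinases phosphorylate, rose by 0.74 (adjusted p = 8.7e-04). The calls of Eif2b1, Eif2b2, Eif2b4 and Ppp1ca among these were lost when at least 1 library was left out, with adjusted p of up to 0.134. In 2MUT 2 genes were higher and 2 lower. Eif5, which promotes GTP hydrolysis by eIF2, rose from 189, 185 and 197 RPM to 339, 387 and 373 RPM (log2 fold change 0.94, adjusted p = 3.0e-05), and Ppp1cb rose by 0.36 (adjusted p = 0.011). Eif2b2 fell by 0.47 (adjusted p = 0.0079) and Eif2s1 by 0.42 (adjusted p = 0.027), the latter no longer called without Control 1 or any 1 of the 2MUT libraries (adjusted p up to 0.111).

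Paralogs of the regulators did not follow them with 2-HG. Of the 7 tested, 0 were higher, by limma, edgeR or DESeq2 and at an unadjusted p under 0.05, and 5 were lower. Sesn1 went from 37.6, 31.8 and 35.9 RPM to 14.9, 18.04 and 20.7 RPM (log2 fold change -0.94, limma, Benjamini-Hochberg adjusted p = 9.3e-04), whereas Sesn2 rose. Sesn3 fell by 0.77 (adjusted p = 0.0061) and Trib2 by 1.09 (adjusted p = 0.0018), while Trib3 rose. The other falls were Trib1 by 0.36 and Ddit4l by 0.68, both lost when 1 of some libraries was left out (adjusted p up to 0.111 and 0.0532). Ddit4l averaged 0.682 RPM in 2-HG(+) and 1.72 RPM in 2-HG(-). It passed the filter of a mean of 1 RPM only through 2-HG(-), and its call is a description. In 2MUT 4 of 7 were higher and 1 lower. Trib2 rose there from 55.9, 69.4 and 64.4 RPM to 122, 107 and 87.9 RPM (log2 fold change 0.72, adjusted p = 0.0022) and this call held with each library left out. The rises of Sesn1, Sesn3 and Chac2 and the fall of Jdp2 did not hold, with adjusted p of up to 0.115, 0.0756, 0.0633 and 0.108. The difference between the comparisons was called for Sesn1, Sesn3, Trib1, Trib2 and Chac2, all larger in 2MUT.

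The bZIP proteins with which ATF4 and CHOP pair went in several directions. Fosl1 was higher in both comparisons, from 42.5, 54.6 and 58.5 RPM to 91.6, 95.6 and 90.8 RPM in 2MUT (log2 fold change 0.84, adjusted p = 6.6e-04) and by 0.94 with 2-HG (adjusted p = 0.0015). Nfe2l2, which encodes NRF2, the activator of antioxidant genes, rose by 1.09 in 2MUT (adjusted p = 7.4e-04) and was at -0.31 with 2-HG (adjusted p = 0.17), and this difference was called (1.41, adjusted p = 0.0012). Cebpg, a common partner of ATF4 at CARE sites, rose by 0.79 with 2-HG (adjusted p = 0.0073) and was at 0.013 in 2MUT. Fos and Cebpd fell with 2-HG, by 1.40 (adjusted p = 9.4e-05) and 0.88 (adjusted p = 7.7e-04). Cebpb rose in 2MUT by 0.48 (adjusted p = 0.0039), and Jun fell there by 0.35 (adjusted p = 0.016, up to 0.0675 without 2MUT 1 or 2MUT 2) and rose with 2-HG by 0.62 (adjusted p = 0.0020).

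The target genes of ATF4 were mostly higher with 2-HG. Of 19 tested genes of amino acid synthesis and transport, 17 were higher with 2-HG and 1 lower, with a median log2 fold change of 1.73. Cth, which makes cysteine from cystathionine, went from 10.2, 12.3 and 10.8 RPM to 123, 129.6 and 138 RPM (log2 fold change 3.44, adjusted p = 2.4e-07). The next largest rises were those of Slc7a11, the cystine transporter (2.83, adjusted p = 1.7e-06), and Asns, asparagine synthetase (2.40, adjusted p = 1.9e-06). Slc38a2, a neutral amino acid transporter, was the 1 that fell, by 0.50 (adjusted p = 0.0040). In 2MUT 4 of the 19 were higher and 1 lower, with a median of 0.087. Slc38a2 rose there from 38.5, 43.3 and 35.4 RPM to 102, 80.2 and 93.0 RPM (log2 fold change 1.21, adjusted p = 5.9e-05), and Slc6a9, a glycine transporter, by 0.75 (adjusted p = 2.8e-04). Slc1a4 was higher by 1.22 (adjusted p = 0.048), but Control 2 stood at 42.0 RPM beside 203 and 168 in the other controls, the change without it was 0.52, and the call was lost without any 1 of the 2MUT libraries (adjusted p up to 0.113). Slc1a5, a glutamine transporter, was called lower in 2MUT and higher with 2-HG, and both calls were lost when some single libraries were left out (adjusted p up to 0.073 and 0.0502). The difference between the comparisons was called smaller in 2MUT for 17 of the 19 genes and called larger for 1, Slc38a2. That of Slc1a4, at 0.99 (adjusted p = 0.17), was not called.

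Genes for tRNA charging, most of them synthetases, were also mostly higher with 2-HG, while in 2MUT more were lower than higher. With 2-HG 12 of 13 were higher and 0 lower, by limma, edgeR or DESeq2 and at an unadjusted p under 0.05, with a median of 1.18. Gars rose from 230.3, 215 and 216 RPM to 686, 655 and 651 RPM (log2 fold change 1.59, adjusted p = 2.6e-06), followed by Aars (1.53, adjusted p = 5.6e-05) and Cars (1.30, adjusted p = 1.0e-04). In 2MUT 1 was higher, Wars (0.55, adjusted p = 0.0089), and 4 were lower, with a median of -0.067. Sars fell from 1094, 860 and 1048 RPM to 515, 482 and 624 RPM (log2 fold change -0.89, adjusted p = 2.6e-04) and Aars by 0.58 (adjusted p = 0.0014), while the falls of Eprs and Lars were lost when some single libraries were left out (adjusted p up to 0.0927 and 0.132). The difference between the comparisons was negative for all 13, from -2.10 to -0.25, and it was called for 11, while those of Tars (-0.60) and Xpot (-0.25), named after their values were seen, were not. In the positive direction 0 were called, and 0 at an unadjusted p under 0.05.

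Of the other targets of ATF4, more were higher than lower in both comparisons. With 2-HG 8 of 11 were higher and 1 lower (median 0.89), and in 2MUT 6 were higher and 2 lower (median 0.44). Stc2, stanniocalcin 2, rose in 2MUT from 3.55, 8.26 and 8.89 RPM to 21.3, 19.5 and 31.0 RPM (log2 fold change 1.71, adjusted p = 0.0010) and by 1.14 with 2-HG (adjusted p = 0.0024). Fgf21, a stress-induced hormone, rose with 2-HG from 0.218, 0.735 and 0.420 RPM to 5.95, 7.28 and 6.14 RPM (log2 fold change 2.37, adjusted p = 1.3e-05). In 2MUT its rise of 1.38 (adjusted p = 0.015) came from 1.48, 1.14 and 0 RPM against 4.64, 2.05 and 4.40 RPM and was lost without 2MUT 1 or 2MUT 3 (adjusted p up to 0.0605). Fgf21 averaged 0.458 RPM in 2-HG(-) and 0.873 RPM in Control. It thus passed the filter of a mean of 1 RPM only through the groups where it was high. Its calls, counted above, are descriptions. Ero1l, the ER oxidase, and Vldlr, a lipoprotein receptor, also rose in both. The falls were those of Bbc3, or PUMA, by 1.21 in 2MUT (adjusted p = 0.0089), of Tnfrsf10b, the death receptor DR5, by 0.50 in 2MUT (adjusted p = 0.024, up to 0.0832 with 1 library left out), and of Bcl2l11, or BIM, by 0.57 with 2-HG (adjusted p = 0.0087). In 2MUT Bcl2l11 was higher by 0.44, a call lost when some single libraries were left out (adjusted p up to 0.16).

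The CARE match was found in the windows of 5 of 17 genes of amino acid supply, 5 of 9 of tRNA charging and 3 of 11 of the other targets, and in 0 of 8 of the kinase list, 0 of 6 bZIP partners, 0 of 13 of the IRE1 and ATF6 list and 0 of 6 mitochondrial genes. It was also found in 1 of 11 genes of the eIF2 list, Eif2s3x, and 1 of 7 paralogs, Jdp2, beside 4.51% of all genes. The gene with a match and the largest rise with 2-HG in each target list is shown, to set beside the sites of the regulators above:
Slc7a11, chr3:50443661-50443690, minus strand: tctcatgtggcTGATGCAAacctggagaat
Gars, chr6:55037960-55037989, plus strand: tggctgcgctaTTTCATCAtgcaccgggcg
Fgf21, chr7:45615611-45615640, minus strand: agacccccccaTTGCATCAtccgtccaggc
That of Slc7a11 begins 66 bases before the start and reads forward, with another match on the other strand 47 bases before it. Those of Gars and Fgf21 begin 30 and 139 bases before it on the reverse strand, and Fgf21 and the other match of Slc7a11 carry the same 8 bases as Atf3, Chac1 and Nupr1.

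Neighbouring stress pathways were read in the same way. The IRE1 and ATF6 arms of the unfolded protein response had medians of 0.19 with 2-HG and 0.18 in 2MUT. Of their genes 6 of 16 were higher with 2-HG and 5 of 16 in 2MUT, where 16.1% and 16.5% of all genes were. None of the 16 was lower by limma, edgeR or DESeq2 in either comparison. At an unadjusted p under 0.05 limma counted 2 lower in 2MUT and 0 with 2-HG. Dnajb9, an ER cochaperone, rose in 2MUT from 15.5, 15.8 and 13.0 RPM to 48.8, 41.6 and 39.8 RPM (log2 fold change 1.49, adjusted p = 3.3e-05), and was at 0.17 with 2-HG (adjusted p = 0.18), a difference that was called (1.32, adjusted p = 2.1e-05). Atf6 rose with 2-HG by 0.82 (adjusted p = 0.0060), and Xbp1 by 0.60 (adjusted p = 0.0028). Of 6 mitochondrial chaperones and proteases, 5 were higher with 2-HG, led by Hspa9 (1.33, adjusted p = 3.4e-05) and Lonp1 (1.30, adjusted p = 7.9e-05), and 0 lower by limma, edgeR or DESeq2 and at an unadjusted p under 0.05. In 2MUT 2 were lower, Lonp1 by 0.45 (adjusted p = 0.0053) and Clpp by 0.33 (adjusted p = 0.018, up to 0.0726 with 1 library left out), and 0 were higher by the same tools and at the same unadjusted threshold.

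**Figure D4:**
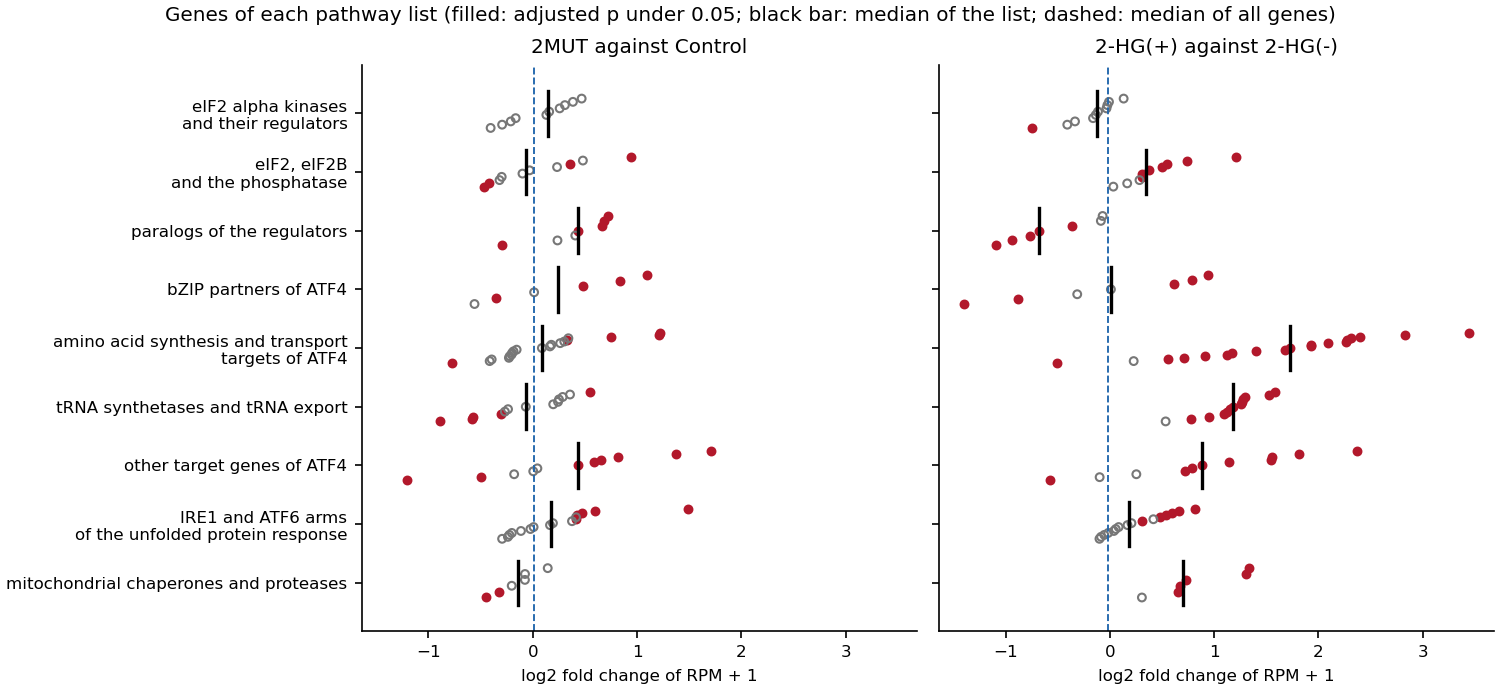
Log2 fold change of RPM + 1 (horizontal axis) of each tested gene of the 9 pathway lists (rows), in 2MUT against Control (left) and 2-HG(+) against 2-HG(-) (right), filled where limma's adjusted p was under 0.05, with the median of each list as a black bar and that of all genes as a dashed line. With 2-HG the medians of the amino acid and tRNA lists lie at 1.73 and 1.18, and in 2MUT at 0.087 and -0.067.

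**Figure D5:**
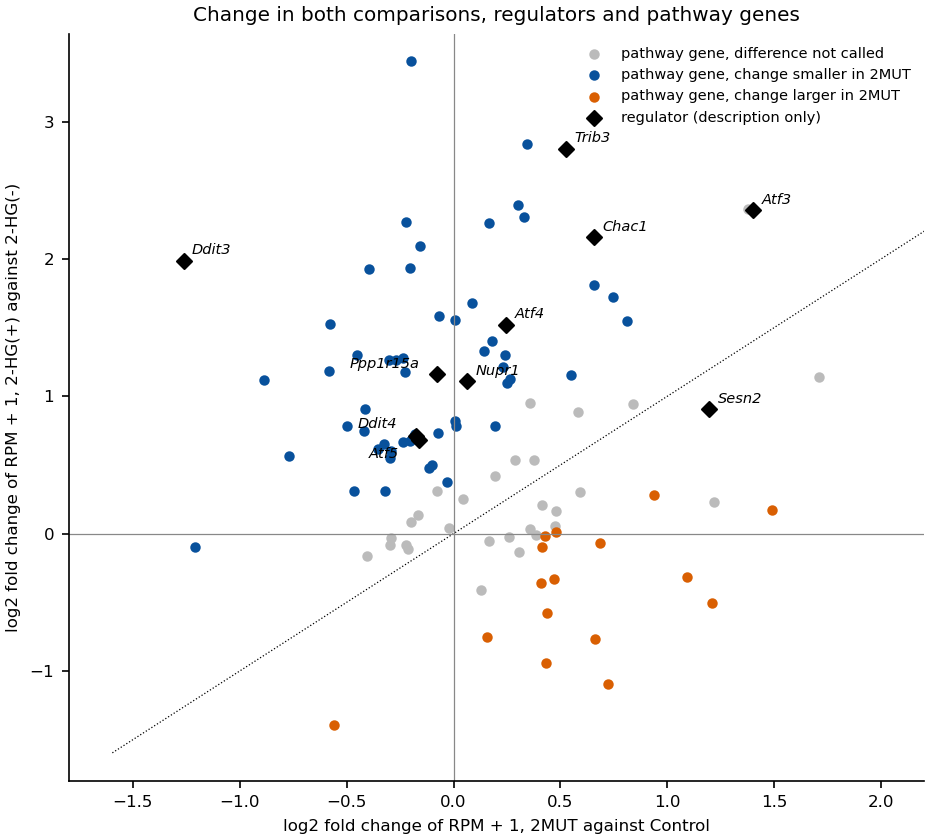
Log2 fold change of RPM + 1 in 2MUT against Control (horizontal axis) and in 2-HG(+) against 2-HG(-) (vertical axis) of the 10 regulators (diamonds) and of the 97 pathway genes tested in both (circles), coloured where the difference was called, with a dotted line of equal change. The 52 blue circles, smaller in 2MUT, lie above the line and the 16 orange ones below it, and Sesn2 is the 1 diamond below the line.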

How the data were processed

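Expression was measured in 12 libraries of mouse MEF cells, made with an Ion AmpliSeq kit. The RPM values were made by the authors with TMAP, which placed the reads on the AmpliSeq mouse reference, and the AmpliSeqRNA plug-in, which gave reads for every gene, and were deposited as a table per experiment. Whether strand was used and where the targets lie are not given in the sources used here. In each library 100% of the values were whole multiples of 1 read within 0.05 reads, which gave the depths. Of the names, 27 in each table had become dates and 4 entries carried a repeated name, and none of these was a gene described here. Replicate libraries differed by more than sampling noise (chi-square per degree of freedom from 5.57 to 31.4).

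Each table was tested alone in R 4.3.3 with limma 3.58.1. The test used log2(RPM + 1), a trend of the variance on the mean, and the genes whose 6 libraries averaged at least 1 RPM, at a Benjamini-Hochberg adjusted p under 0.05. The difference between the comparisons was a contrast over the 12 libraries on genes tested in both. The authors tested each gene without moderation in GeneSpring, which is one of the alternatives here, beside another added value (0.1 RPM), other filters, quantile and median-of-ratios scaling, edgeR 4.0.16 and DESeq2 1.42.0 on recovered reads, a block for the replicate number, and leaving out every library once. The script was tested on data drawn from the real means.

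The 10 regulators and the 9 lists were chosen with earlier results of these data known. Named genes are the 10, any gene of the kinase, eIF2, paralog and bZIP lists, from other lists the 3 largest rises and falls among called genes and those with a called difference, Idh2, and the 10 genes most like the mean of the regulators among those with an SD of at least 0.25. Tars and Xpot were named outside this rule, after their values were seen. Some genes are listed under older names (Gcn1l1, Ero1l, Aars), and Eif2s2, Eif2s3x, Ppp1cc, Phgdh and Hspd1 were found in the 2MUT table and not analysed in the other. Gene coordinates come from GENCODE M21 on GRCm38 and promoter windows from RefSeq on GRCm38.p6. Tables were handled with pandas 2.3.3 and plots drawn with matplotlib 3.10.9.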

Additional observations from a re-analysis of the deposited data

Results flagged for a closer look

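Among the pathway lists, 16 genes were called in opposite directions in the 2 comparisons with the difference itself called (limma over the 12 libraries, Benjamini-Hochberg adjusted p under 0.05). Opposite calls nearly fix a called difference, which all 900 genes of the tables called in opposite directions had, and the lists were chosen with earlier results known, so the 16 differences are given as descriptions and not as test results. When at least 1 library was left out, the call in 2MUT was lost for 10 of the 16 and that with 2-HG for 2, Eif2b2 and Slc1a5. Both calls held for 5, namely Aars, Sars, Lonp1, Trib2 and Slc38a2. The values below are the log2 change in 2MUT minus that with 2-HG. Of the 16, 11 fell in 2MUT and rose with 2-HG. Of the initiation factors these were Eif2s1 at -1.16 and Eif2b2 at -0.78, of the tRNA synthetases Aars at -2.10, Sars at -2.01, Eprs at -1.76 and Lars at -1.56, and of the mitochondrial proteases Lonp1 at -1.75 and Clpp at -0.98. The others were the glutamine transporter Slc1a5 at -1.33, the death receptor Tnfrsf10b at -1.29 and Jun at -0.97. The other 5 rose in 2MUT and fell with 2-HG, namely Trib2 at 1.82, Slc38a2 at 1.71, Sesn3 at 1.43, Sesn1 at 1.37 and Bcl2l11 at 1.01. Ddit3 is set beside them because all 3 of its 2MUT libraries lay below the controls and all 3 of its 2-HG(+) libraries above theirs, a difference of -3.25 that is likewise a description, since the gene was chosen with these values known.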

How the results depend on the processing

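No called result turned its direction under these alternatives, while the uncalled changes of Atf5, Nupr1 and Ppp1r15a in 2MUT crossed 0 when single libraries were left out. An unmoderated test moved the counts to 1021 higher and 1223 lower genes in 2MUT and 1098 higher and 1139 lower with 2-HG, to 1 regulator higher and 0 lower in 2MUT (edgeR and DESeq2 kept the call of Ddit3), and to 12 list genes higher and 7 lower in 2MUT. Under it Ddit3, Chac1 and Sesn2 in 2MUT and Sesn2 and Ddit4 with 2-HG lost their calls. Leaving out single libraries, the regulators called in 2MUT were 3 to 4 higher and 1 to 2 lower, where the additional calls, Atf4 and Ddit4, came without Control 3. List genes called lower in 2MUT were between 6 and 15, at 6 without 2MUT 1 or 2MUT 2. The median of the regulators with 2-HG was between 1.21 and 1.54, the latter without 2-HG(-) 2. Atf4 in 2MUT passed the threshold with the filter at 10 RPM, quantile normalization, DESeq2 and the replicate block, at log2 fold changes of 0.25 to 0.26. Atf5 with 2-HG passed with quantile normalization, median-of-ratios scaling, edgeR and DESeq2, at up to 0.82. Deviations of same-numbered libraries had correlations of 0.071, 0.029 and 0.032 in the 2MUT and -0.457, -0.158 and 0.057 in the 2-HG experiment. Across numbers they ran from -0.138 to 0.089 and from -0.414 to 0.480. Not every library correlated best with its own number, and the main tests did not pair the libraries. The correlations across numbers in the 2-HG experiment are not modelled by these tests. With the replicate number as a block, 3898 genes were called in 2MUT and 2503 with 2-HG, against 3741 and 3405. Trib3 rests on the fewest reads of the regulators, 15 to 27 in Control and 14 to 42 in 2-HG(-). The cause of these shifts was not tested.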

Other observations

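Levels in the untreated cells of the 2 experiments belong to no comparison, since the tables list different entries, were scaled separately and hold cells with and without a vector, so that what sets their levels cannot be told apart. Set side by side, Ppp1r15a was at 42.0 ± 4.64 RPM in Control and 7.82 ± 2.55 RPM in 2-HG(-), Nupr1 at 81.8 ± 7.24 and 17.8 ± 2.05 RPM, Ddit3 at 142 ± 42.8 and 44.2 ± 10.6 RPM, and Atf5 at 21.6 ± 6.36 and 5.98 ± 1.26 RPM (SD, n = 3). Ddit4 stood the other way, at 227 ± 32.9 and 305 ± 8.03 RPM. For Ppp1r15a and Nupr1 the lowest Control library was above the highest 2-HG(+) library. Of the target genes, Slc38a2 was at 35.4 to 43.3 RPM in Control and 712 to 769.7 RPM in 2-HG(-), and Slc7a11 at 0.957 to 2.28 and 25.6 to 35.3 RPM.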
